A study of Mus musculus with 12 samples.

Results

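Krüppel-like factors are transcription factors with zinc fingers that bind CACCC and GC-rich boxes in DNA. Klf2 and Klf4 are known for their induction in endothelial cells by steady laminar flow, through the kinase ERK5 and MEF2 factors, and they favour genes that keep the vessel wall quiet, such as Nos3 and Thbd. Low or disturbed flow, as at arterial branches, is known to go with less of both. Other members answer to injury, growth factors or hormones, and several act as repressors through the corepressors CtBP or Sin3A.

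The data described here are those of 8 Krüppel-like factors, Klf2, Klf3, Klf4, Klf6, Klf7, Klf9, Klf10 and Klf13, in mouse carotid arteries. Members were all transcripts measured under these symbols in the platform annotation, which gave 15 probes of 45281 on the array and 8 genes of 19057. Klf2, Klf3 and Klf9 had 1 probe, Klf6, Klf10 and Klf13 had 2, and Klf4 and Klf7 had 3. The probes of a gene are given singly, since they need not bind with the same strength, and levels are compared within a probe only.

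Total RNA came from carotid arteries of C57Bl/6J mice, wild type (WT) or labelled FibVKO (KO, knockout of fibulin-5), a matrix protein of elastic fibres encoded by Fbln5. In every group the mice had undergone surgery that partly tied off the left common carotid (LCA) and so disturbed its flow, while the right common carotid (RCA) was not touched. Both arteries were taken 1 day later, so the groups were WT RCA, WT LCA, KO RCA and KO LCA, with 3 one-colour Illumina arrays each and 12 in all. The sample titles say KO, while the design text speaks of a knockdown abbreviated KO. Age, sex and the kind of allele are not stated, the untouched artery came from ligated mice, and no artery of an unoperated mouse was part of the groups. The study asked what losing fibulin-5 does to arteries that stiffen and remodel when flow is disturbed. The labels leave unsaid whether each array is a mouse of its own, so the p-values reflect only how far these arrays vary, which may be technical.

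Intensities are linear values from the authors, with a median of 93.6 and a floor of 72.4. Background was read from 1506 probes for olfactory and vomeronasal receptors, whose 95th percentile ranged from 95.7 to 126 over the 12 arrays. The array of WT LCA replicate 3 stood apart, with the highest background, 18.3% of genes above it (30.9% to 50.6% elsewhere) and a median correlation of 0.69 with the others (0.78 to 0.87 elsewhere). The probe for Fbln5 lay at 80.6 to 97.4 on the 12 arrays, below background in WT and KO alike, and so gave no check of the genotype labels. The endothelial markers Pecam1, Cdh5, Vwf and Tie1 were above background on all 12 arrays. Markers of the other wall cells were dimmer. Of 15 tested smooth muscle markers, 6 were above background on every array of WT RCA, 2 of WT LCA, 7 of KO RCA and 10 of KO LCA. For 14 tested fibroblast markers these counts were 5, 2, 7 and 11. Of the 15 member probes, 14 passed a filter on dim probes (at or above the array's median on at least 3 arrays) and were tested, and 6 were above background on all 12 arrays.

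Klf2 and Klf4 were the members with a probe whose intensity was lower in the ligated artery, without overlap between arrays, in both genotypes. Sequence upstream of each is shown here because these genes carried the lower values, with the motifs that a search of both strands found in capitals. The motifs searched were a MEF2-like box (CTANNNNTAG), the CACCC box and the GC box (GGGCGG), each read also as its reverse complement. The sequences are the 250 bases before the RefSeq start site (GRCm38.p6), 5′ to 3′ on the gene's strand, from chr8:72318812-72319061 on the plus strand for Klf2 and chr4:55532476-55532725 on the minus strand for Klf4.
Klf2: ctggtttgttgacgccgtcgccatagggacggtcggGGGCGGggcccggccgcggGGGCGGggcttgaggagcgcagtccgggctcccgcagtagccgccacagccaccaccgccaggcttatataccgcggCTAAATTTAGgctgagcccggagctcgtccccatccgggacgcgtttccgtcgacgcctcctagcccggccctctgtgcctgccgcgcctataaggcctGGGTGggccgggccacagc
Klf4: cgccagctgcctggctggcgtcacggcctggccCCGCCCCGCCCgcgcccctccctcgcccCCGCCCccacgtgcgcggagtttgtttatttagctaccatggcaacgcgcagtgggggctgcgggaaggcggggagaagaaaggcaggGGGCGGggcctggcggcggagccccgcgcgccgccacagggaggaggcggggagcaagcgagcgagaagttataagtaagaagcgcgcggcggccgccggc
A RefSeq promoter window, which runs from 250 bases before to 50 after the start, was matched for 7 of the 8 members. Of these 7 windows, Klf2 alone held the MEF2-like box, as CTAAATTTAG with its first base 118 bases before the start, and 3.69% of 32851 mouse promoter windows of that length held one. The CACCC box, which 57.5% of windows held, was found in Klf2, Klf3, Klf7, Klf9 and Klf13. The GC box, held by 35.7% of windows, was found in all but Klf9. Matches overlapped one another in the windows of Klf3, Klf4 and Klf13, and a match describes letters only.

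Klf2, the flow-induced factor of endothelium, had intensities of 180.0, 203 and 185 in the 3 arrays of WT RCA and 106, 95.9 and 109 in those of WT LCA. In KO they were 192, 161 and 271 in RCA and 106, 117 and 121 in LCA. All 6 ligated arteries therefore lay below all 6 untouched ones, and within RCA the third KO array was the highest of the series. The log2 difference, LCA minus RCA, was -0.87 ± 0.16 (SE) in WT and -0.83 ± 0.16 in KO, or 1.83-fold and 1.77-fold lower in LCA. The LCA values were close to background, above it on 1 of 3 WT arrays and 3 of 3 KO arrays, which compresses the fold. With the array minimum subtracted and a pseudocount of 16 the differences were -1.50 and -1.32.

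Averaged over the genotypes, the Klf2 difference was -0.85 ± 0.11 (95% confidence interval -1.10 to -0.60), and its p was the smallest of the 25796 probes tested. After Benjamini-Hochberg adjustment over all probes in limma it did not pass, at adjusted p = 0.282, and neither did the separate comparisons (0.318 in WT, 0.627 in KO). An exact permutation test of this value, two-sided, with LCA and RCA exchanged within each genotype, gave p = 0.005, the smallest that its 400 arrangements allow. Groups without overlap in both genotypes must give this value, and Klf2 and Klf4 were chosen for the test with their lower values known, so it adds nothing to that description. Leaving out KO RCA replicate 3, the highest array, gave -0.75 and adjusted p = 0.0271 in limma, which passed. Over the alternatives run for Klf2 the adjusted p in limma ranged from 0.0165, relative to endothelial markers, to 0.59. The difference between the genotypes' ligation effects was 0.04 ± 0.22, with an interval of -0.46 to 0.54, so these arrays leave room for a difference of about that size in either direction. Between genotypes, KO minus WT, Klf2 differed by 0.10 ± 0.16 in RCA and 0.15 ± 0.16 in LCA, and the groups overlapped.

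Klf4 is induced by laminar flow in endothelium and is also known in smooth muscle cells that leave their contractile state. Its brightest probe (ILMN_2999439) read 345, 481 and 588 in WT RCA and 154, 125 and 185 in WT LCA. KO RCA gave 425, 425 and 221, and KO LCA gave 128, 142 and 189. Again every ligated artery was below every untouched one, the third KO RCA array being the lowest of RCA. The log2 difference was -1.59 ± 0.29 in WT, 3.02-fold lower, and -1.18 ± 0.29 in KO, 2.27-fold lower. The average of -1.39 ± 0.21 (interval -1.85 to -0.93) held rank 4 of all probes by p and had adjusted p = 0.282 in limma. The exact permutation p was again 0.005, which the lack of overlap fixes, and the interaction was 0.41 ± 0.41. KO minus WT was -0.43 ± 0.29 in RCA and -0.02 ± 0.29 in LCA, with overlap in both.

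The other 2 Klf4 probes were dimmer and less even. ILMN_1241903 read 436, 182 and 168 in WT RCA against 94.4, 82.7 and 89.8 in WT LCA, where it was above background on none of 3 arrays. With these LCA values set to background, the mean of RCA was 2.19-fold higher. The WT difference was -1.42 ± 0.51 (95% confidence interval -2.55 to -0.29). In KO it read 150.2, 176 and 139 in RCA and 103, 86.4 and 354 in LCA. The third KO LCA array alone exceeded every KO RCA array, and the KO difference was -0.07 ± 0.51. ILMN_1221264 read 247, 150.1 and 146 in WT RCA, 103, 95.5 and 95.7 in WT LCA, 141, 299.9 and 133 in KO RCA and 104, 99.6 and 149 in KO LCA. Its differences were -0.84 ± 0.32 in WT and -0.62 ± 0.32 in KO (average -0.73 ± 0.22, adjusted p = 0.418 in limma). In WT all 3 Klf4 probes were thus lower in LCA without overlap between arteries. In KO this held for ILMN_2999439 alone, and for ILMN_1241903 the mean intensity was 155 in RCA and 181 in LCA.

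**Figure D1:**
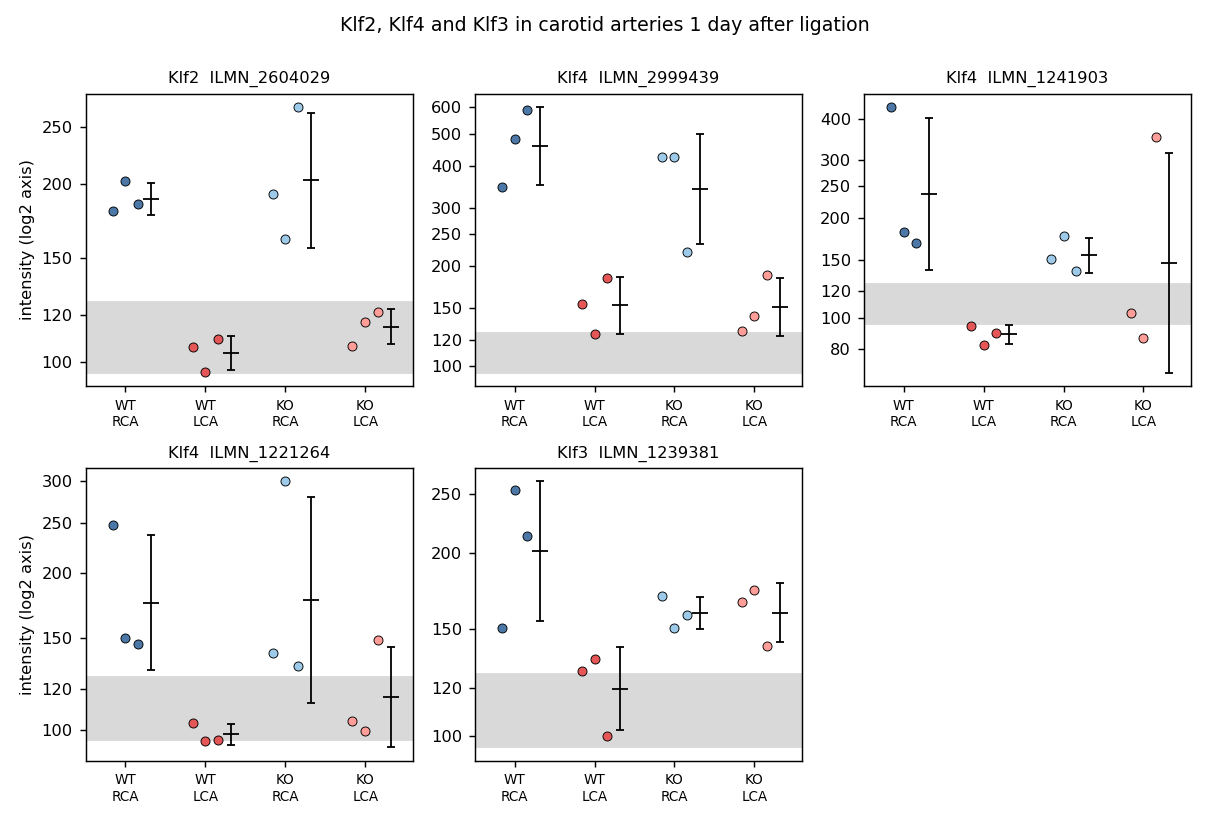
Intensity (vertical log2 axis, with its own range in each panel) of the probes for Klf2, Klf4 and Klf3 for the 12 arrays, grouped along the horizontal axis; the black bar gives the mean ± SD of the log2 values of 3 arrays and the grey band the range of background over the 12 arrays, 95.7 to 126. All 6 LCA points of Klf2 and of Klf4 ILMN_2999439 lie below all 6 RCA points, and Klf3 in WT LCA, at 99.9 to 134, lies below WT RCA while its KO arteries overlap.

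Klf3, a repressor that recruits CtBP, read 150.5, 253 and 213 in WT RCA and 128, 134 and 99.9 in WT LCA. In KO it read 169.9, 150.7 and 158 in RCA and 166, 174 and 140.4 in LCA. WT LCA was the low group, without overlap with WT RCA or KO LCA, while the arteries of KO overlapped. The log2 difference between arteries was -0.75 ± 0.18 in WT (adjusted p = 0.545 in limma) and 0.00 ± 0.18 in KO. The difference between these effects was itself tested, at 0.75 ± 0.26, and did not pass over all probes (adjusted p = 0.919 in limma). Klf3 was the 1 member probe of 14 with an unadjusted p under 0.05 in the interaction, where 2.25% of all probes had one in that direction and 0% passed. Without WT LCA replicate 3, the array with the highest background, the Klf3 interaction was 0.62.

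Klf6 and Klf7, other members known mainly as activators, were not lower in all ligated arteries. Klf6, an early gene of vascular injury, read 849.9, 995 and 586 in WT RCA and 682, 686 and 1054 in WT LCA by its bright probe (ILMN_2731949). KO RCA read 1263, 1074 and 1107, and KO LCA read 1317, 1684 and 1495. The arrays of KO were all above those of WT from the same artery, and within WT the arteries overlapped. The difference KO minus WT was 0.53 ± 0.22 in RCA (adjusted p = 1.00 in limma) and 0.92 ± 0.22 in LCA (adjusted p = 0.301), or 1.45-fold and 1.89-fold. The ligation difference was 0.00 ± 0.22 in WT and 0.38 ± 0.22 in KO, where the groups did not overlap.

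The second Klf6 probe (ILMN_1232041), close to background, read 121, 116 and 99.6 in WT RCA, 123, 103 and 88.1 in WT LCA, 137, 167 and 127 in KO RCA, and 144, 132 and 131 in KO LCA. It too had all KO arrays above all WT arrays of the same artery, by 0.35 ± 0.14 in RCA and 0.39 ± 0.14 in LCA. Other markers differed between the genotypes in the same arrays. At an unadjusted p under 0.05, 4.49% of all probes were higher in KO in LCA. So were 7 of 14 tested fibroblast markers and 7 of 15 tested smooth muscle markers. Of these markers, 1 of smooth muscle passed over all probes, and none on either list was lower. Their summed intensities were 1838 to 2180 in WT LCA and 2222 to 3005 in KO LCA for fibroblast markers, and 1705 to 2251 and 3551 to 4973 for smooth muscle markers. In RCA, 4 of 15 smooth muscle markers were higher (2.40% of all probes were), with sums of 2020 to 2144 in WT and 2618 to 3147 in KO. Of 14 fibroblast markers in RCA, 0 were higher and 2 lower in KO (1.93% of all probes were lower), with sums of 2527 to 3362 in WT and 2069 to 2442 in KO. Their part in the Klf6 values was not tested. In such bulk RNA, more cells of a type and more RNA per cell cannot be told apart.

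Klf7, a factor known from developing neurons and adipocyte precursors, was marked by single high arrays. Its brightest probe (ILMN_1251426) read 6319.8, 472 and 320.0 in WT RCA, 360.0, 259 and 468 in WT LCA, 615, 340.2 and 1801 in KO RCA, and 516, 495 and 599.7 in KO LCA. The probe ILMN_2433213 read 989 on 1 array, WT LCA replicate 1, and 109 to 357 on the 11 others. The third, ILMN_1241890, lay between 94.7 and 193. The highest array was thus a different one for ILMN_1251426 than for the other probes, and no Klf7 probe had an unadjusted p under 0.05 in any comparison. The averaged ligation differences were -0.96 ± 0.70, 0.48 ± 0.50 and -0.18 ± 0.17, in the order named.

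Klf9, Klf10 and Klf13 are repressors that recruit Sin3A. Klf9, which glucocorticoid and thyroid hormone induce in many tissues, read 184, 218 and 169.9 in WT RCA and 319, 194 and 266 in WT LCA. KO RCA read 229, 323 and 186, and KO LCA read 381, 255 and 187. All its groups overlapped, and the averaged difference of 0.28 ± 0.20 was within the spread (adjusted p = 0.604 in limma).

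Klf10, an early target of TGF-beta, was between 125 and 214 on 11 arrays by its brighter probe (ILMN_2648189) and at 472 on WT LCA replicate 3, the array that stood apart. The averaged difference was 0.18 ± 0.29 with that array and -0.11 without it. The second Klf10 probe (ILMN_1238766) was the 1 member probe below the filter, at 81.6 to 93.2, under background on all 12 arrays. Klf13, known as a regulator of chemokine expression in T cells, read 141, 158 and 143 in WT RCA and 202, 157 and 211 in WT LCA by ILMN_2464474, and 122 to 223 over the KO arrays. Its other probe (ILMN_1218206) lay between 89.4 and 168. The averaged differences of the pair were 0.16 ± 0.15 and -0.14 ± 0.12, of opposite sign and within the spread.

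**Figure D2:**
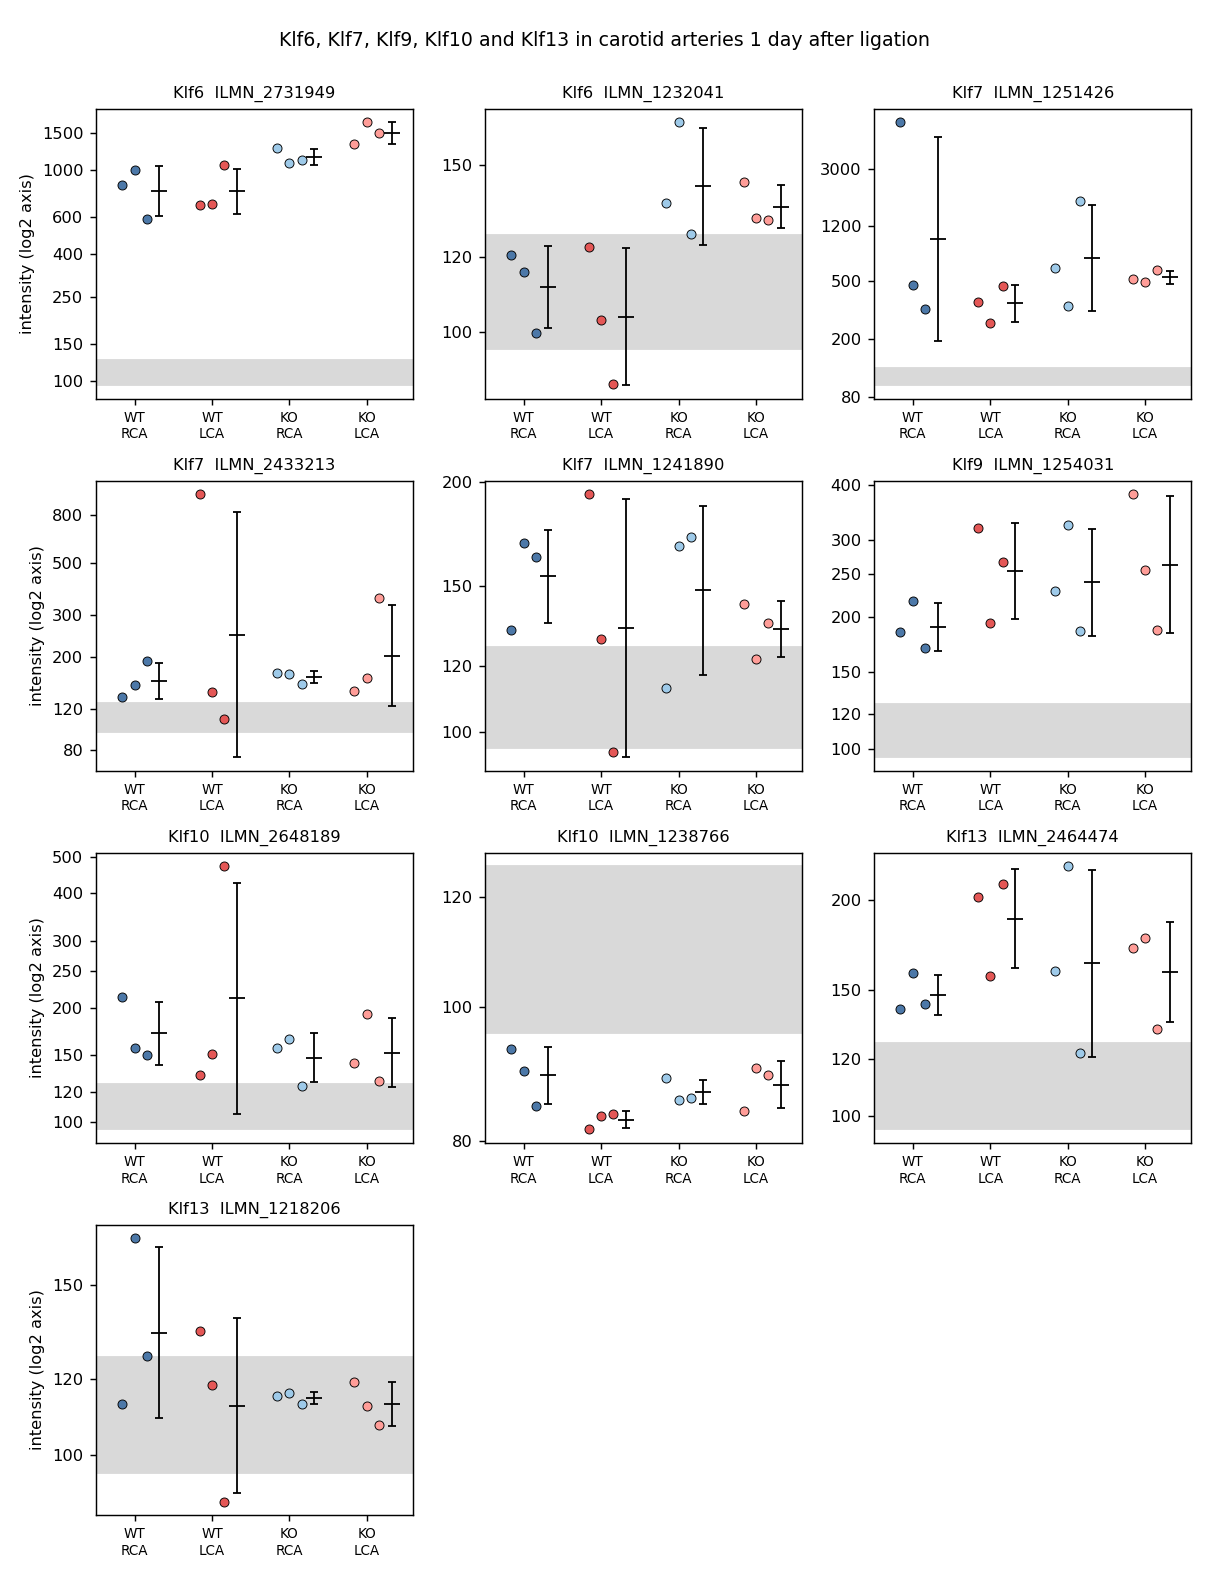
Intensity (vertical log2 axis, with its own range in each panel) of the probes for Klf6, Klf7, Klf9, Klf10 and Klf13 for the 12 arrays, grouped along the horizontal axis, with the mean ± SD of the log2 values in black and the range of background in grey. Both Klf6 probes are higher in KO than in WT in each artery, and single arrays stand out for Klf7 (6319.8 in WT RCA, 989 in WT LCA) and Klf10 (472 in WT LCA).

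Over the 14 tested member probes, none passed an adjusted p of 0.05 in limma in any of the 6 comparisons. None of all 25796 probes passed in the ligation comparisons (0% in WT, 0% in KO and 0% averaged), in RCA between genotypes (0%) or in the interaction, and 11 (0.0426%) passed between genotypes in LCA. At an unadjusted p under 0.05, 5 of 14 member probes were lower in LCA in WT (4.38% of all probes were), 2 of 14 in KO (4.30%) and 4 of 14 averaged over genotypes (6.56%). None of 14 was higher in that average, against 4.07% of all probes. The members were chosen with earlier results of these data known, so their counts beside these shares are a description only. The 5 in WT were those of Klf2 and Klf3 and the 3 of Klf4, and leaving out 1 array at a time gave 3 (without WT RCA replicate 1) to 7 (without WT LCA replicate 1), with 4 without WT LCA replicate 3. With 1 probe per gene, the one with the highest mean, 3 of 8 genes (Klf2, Klf3 and Klf4) were lower in the average and 0 were higher, against 6.52% and 3.90% of 15395 genes.

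The groups were also compared without a model. The arrays of LCA lay below those of RCA without overlap for 5 of 14 member probes in WT (6.54% of all probes), 2 of 14 in KO (11.2%, a share near that of the members) and 2 of 14 in both genotypes (1.19%), namely Klf2 and Klf4 ILMN_2999439. In the other direction, Klf6 ILMN_2731949 had LCA above RCA without overlap in KO, and the share of all probes was not counted. For the genotype, 4 of 14 member probes had KO above WT without overlap in LCA (7.61%), those of Klf3, Klf6 and the brightest of Klf7, and 2 of 14 in RCA (6.25%), both of Klf6. At an unadjusted p under 0.05, 2 of 14 were higher in KO in RCA (2.40% of all probes) and 3 of 14 in LCA (4.49%). The count in LCA was 1 without WT LCA replicate 3 and 1 without KO LCA replicate 1. That in RCA was 0 without WT RCA replicate 3 and 1 without any 1 of the KO RCA arrays, and 0 under eBayes with trend and robust. The median averaged ligation difference was -0.16 over the member probes and 0.00 over all probes tested.

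**Figure D3:**
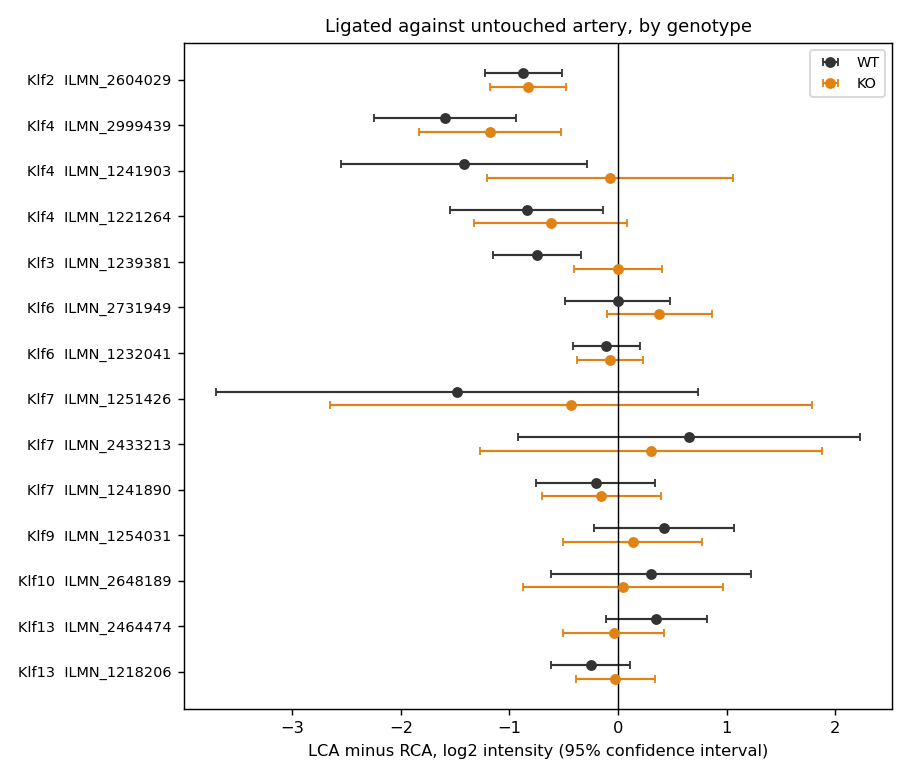
Difference in log2 intensity between ligated and untouched artery (horizontal axis, LCA minus RCA, with the 95% confidence interval from limma) for the 14 tested probes (vertical axis), in WT and KO. The intervals of Klf2 and of Klf4 ILMN_2999439 lie below 0 in both genotypes, those of Klf3 and the other Klf4 probes lie below 0 in WT, and those of the Klf7 probe ILMN_1251426 are the widest.

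**Figure D4:**
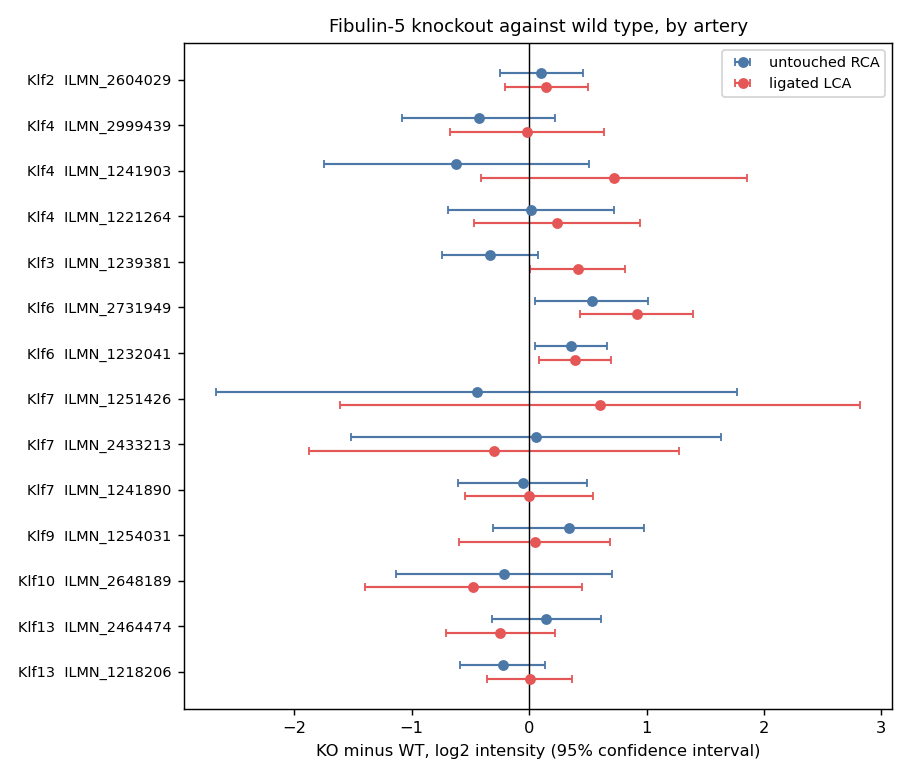
Difference in log2 intensity between KO and WT (horizontal axis, KO minus WT, with the 95% confidence interval from limma) for the same probes (vertical axis), in the untouched and the ligated artery. Both Klf6 probes lie above 0 in both arteries, at 0.35 to 0.92, and Klf2 lies near 0 at 0.10 and 0.15.

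The mean over endothelial markers was also lower in the ligated arteries, though not every marker was. The mean log2 value of the 20 endothelial markers was 8.03 ± 0.06 (SD, n = 3) for WT RCA against 7.76 ± 0.16 for WT LCA, and 7.94 ± 0.11 for KO RCA against 7.70 ± 0.03 for KO LCA. LCA was lower by 0.27 in WT and by 0.25 in KO on this scale. Of the 20 markers 14 had negative and 6 positive averaged differences. Of the negative ones, 5 had an unadjusted p under 0.05 (against 6.52% of all genes). None of the 20 passed over all probes in limma. Their summed intensity ranged from 7039 to 7468 in WT RCA and from 5369 to 5926 in WT LCA, and in KO from 5888 to 7645 (RCA) and from 5339 to 7501 (LCA). Above background on every array were 16, 11, 17 and 17 of the 20 markers, in the same order of groups. Egfl7, Tek and Mmrn2 had the smallest p, with averaged differences of -1.01 ± 0.29, -0.64 ± 0.20 and -0.78 ± 0.26. Pecam1 and Tie1 did not go with them, at 0.19 ± 0.35 and 0.11 ± 0.23. Cdh5 differed by -0.28 ± 0.10 and Vwf by -0.21 ± 0.19.

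Set relative to each array's endothelial mean, the averaged differences were -0.59 ± 0.14 for Klf2 (adjusted p = 0.0165 in limma) and -1.13 ± 0.20 for Klf4 ILMN_2999439 (adjusted p = 0.0162, with up to 0.59 under other alternatives). This scaling moved the median of all probes by 0.26 upward, so that 13542 probes passed, and it is given for the size of the remaining Klf2 and Klf4 differences only. The unadjusted p in limma rose with it, from 2.12e-05 to 0.00163 for Klf2 and from 5.98e-05 to 0.000131 for this Klf4 probe. The part of endothelial content in the unscaled values was not tested beyond this. Of blood cell markers, 1 of 9 macrophage, 0 of 10 neutrophil and 1 of 6 lymphocyte markers were higher in LCA at an unadjusted p under 0.05 in the average, and 1 lymphocyte marker was lower. Over all genes, 3.90% were higher and 6.52% lower in the average. Of 8 red cell and platelet markers, 1 was higher and 0 lower in the average. In KO 1 was higher and 2 were lower (3.25% and 4.30% of all probes were), with a median of -0.29.

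**Figure D5:**
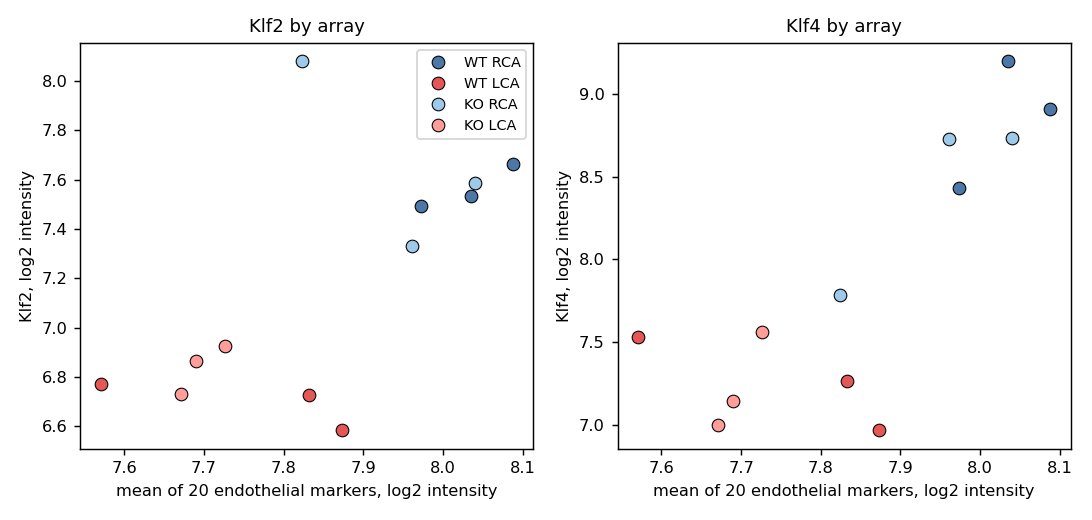
Log2 intensity of Klf2 (left) and of Klf4 ILMN_2999439 (right) on the vertical axis against the mean log2 intensity of the 20 endothelial markers (horizontal axis), 1 point for each of 12 arrays. LCA arrays lie low on the vertical axes, at endothelial means of 7.57 to 7.87, against 7.82 to 8.09 for RCA arrays. KO RCA replicate 3 has the lowest endothelial mean of RCA, the highest Klf2 (8.08) and the lowest Klf4 of RCA (7.79).

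Genes whose 12 values most resembled those of Klf2 were sought among 6803 genes above background on at least 6 arrays. The highest Pearson correlations, given as a description of 12 arrays that share the 4 groups, were with Hoxa2 (0.91), Tmod3 (0.89), Trib2 (0.87), Tceal1 (0.87) and Pcdha6 (0.86). For Klf4 ILMN_2999439 they were Krt80 (0.91), Ackr3 (0.87), Cyren (0.86), Rhpn2 (0.86) and Cavin2 (0.86). Of these genes, Hoxa2, Tceal1, Ackr3 and Cyren were near background, with group means of 88.7 to 127. Pcdha6 was near it in LCA, with means of 90.8 in WT and 97.4 in KO. Klf2 and Klf4 correlated at 0.74, which placed Klf4 at rank 48 for Klf2 and Klf2 at rank 75 for Klf4. Klf3 correlated at 0.56 with Klf2 and 0.58 with Klf4. In the same order, the brightest probe of Klf7 was at 0.48 and 0.14, and that of Klf6 at -0.03 and -0.26. Klf9 was at -0.47 and -0.355, Klf10 at -0.24 and -0.04, and Klf13 ILMN_2464474 at -0.50 and -0.14.

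A list of 16 genes that Klf2 or Klf4 are known to induce in endothelium was read next. The gene lists were chosen with earlier results of these data known, so their counts are a description only. Of these, 6 were lower and 0 higher in LCA at an unadjusted p under 0.05 in the average (6.52% and 3.90% of all genes were), with a median difference of -0.21 against 0.00 over all genes, and 0 passed over all probes in limma. Palmd differed by -0.89 ± 0.18, Nos3, the endothelial nitric oxide synthase, by -0.63 ± 0.18, and the hedgehog ligand Dhh by -1.19 ± 0.36. Nos3 intensity was 172 ± 28.9 (SD, n = 3) in RCA and 106 ± 15.7 in LCA of WT, and 172 ± 74.4 and 109 ± 5.76 in those of KO. Tek and Tie1 stand on both this list and that of endothelial markers. Of 11 tested genes that these factors are known to restrain, 3 were higher and 1 lower, with a median of 0.28, and 0 passed. The matricellular gene Ccn2 differed by 1.48 ± 0.21, the vasoconstrictor peptide gene Edn1 by 0.84 ± 0.29 and Vegfa by -0.32 ± 0.11. KO minus WT, the restrained genes had medians of 0.45 in RCA and 0.58 in LCA. At an unadjusted p under 0.05, 4 of them were higher in RCA and 6 in LCA, with 0 lower. The induced genes had medians of -0.24 (RCA) and -0.07 (LCA), with 15 of 16 below 0 in RCA and 9 in LCA. None passed. Mean Ccn2 intensity was 227 (RCA) and 790 (LCA) for WT, against 832 (RCA) and 1862 (LCA) for KO. Klf2 and Klf4 overlapped between genotypes. Their part in either list was not tested.

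Upstream of Klf2 and Klf4, the 15 tested genes of the ERK5 and MEF2 path and its regulators had a median of -0.03. At an unadjusted p under 0.05, 1 was higher and 1 lower (3.90% and 6.52% of all genes were). Hdac7, a repressor of MEF2, differed by -0.26 ± 0.10, the kinase subunit Prkaa1 by 0.18 ± 0.07 and Krit1, a restraint on this path, by -0.11 ± 0.05. Prkaa1 was above background on 5 of 12 arrays, and Hdac7 and Krit1 were on 10. None of these passed over all probes in limma (adjusted p = 0.433, 0.447 and 0.483).

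The remaining Krüppel-like factors were mostly at background. The 8 tested genes among Klf1, Klf5, Klf8, Klf11, Klf12, Klf14, Klf15, Klf16 and Klf17 had a median averaged difference of -0.08. At an unadjusted p under 0.05, 1 was higher (Klf15, 0.13 ± 0.05) and 1 lower (Klf1, -0.13 ± 0.05), both near background. Over all genes, 3.90% were higher and 6.52% lower. Read by the probe with the highest mean of each gene, none of the 8 was above background on all arrays of any group, whereas all 8 members were in both RCA groups and KO LCA, and 6 of 8 were in WT LCA. Since the members were chosen with earlier results of these data known, this contrast is a description only. A second probe for Klf16, ILMN_2776651, was above background on all 3 arrays of KO LCA. Of the 8 tested Sp factors, relatives with similar zinc fingers, 1 was lower (Sp8, -0.24 ± 0.08, near background) and 0 were higher.

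Inducers of single members were also read. Immediate early genes, which like Klf6 answer injury and growth factors, held 2 of 25 higher and 0 lower in the average. These were Dusp5 (0.13 ± 0.04, under background on all arrays) and Egr2 (0.22 ± 0.07, above it on 4 of 12). Glucocorticoid-responsive genes, with which Klf9 is usually grouped, held 1 of 14 higher (Cebpd, 0.22 ± 0.06) and 1 lower (Fkbp5, -0.29 ± 0.08). Of 14 clock genes, 1 was lower, Bhlhe40, by -0.70 ± 0.14, and 13 had negative differences with a median of -0.16. None of these lists held a gene that passed over all probes in limma. Over all genes, 3.90% were higher and 6.52% lower in the average at an unadjusted p under 0.05.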

How the data were processed

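Per the labels' protocols, total RNA of carotid artery samples was labelled with biotin and hybridised to Illumina arrays. The deposited values are linear intensity values per probe, quantile normalized by the authors as the values show: sorted, they were within 1% of the median array on all 12 arrays. The scanner software, background step and chip of each array: not given in the sources used here. Probes were named by the platform annotation, in which 34885 had 1 symbol, and probes with several (18) or none (10378) were not tested.

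Log2 intensities (floor 1) of the 25796 kept probes entered 1 limma fit (3.58.1, R 4.3.3) on 4 group means with eBayes. Tests were two-sided at 0.05, and p-values were adjusted by Benjamini-Hochberg. The fit was tested on simulated data. The average over genotypes used all 12 arrays. Alternatives were the replicate number as a block, array weights, eBayes settings, filters, scalings, a pseudocount of 16 and leaving out each array. The members and gene lists were chosen with earlier results of these data known. Named outside the members were at most the 3 genes of a list with the smallest averaged p, the 5 genes most like Klf2 and Klf4, and 4 endothelial markers. The number of arrays and the low signal over background limit the precision.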

Additional observations from a re-analysis of the deposited data

How the results depend on the processing

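The averaged difference of Klf2 stayed negative under every alternative run (-1.41 with the array minimum subtracted to -0.59 relative to endothelial markers), as did that of Klf4 ILMN_2999439 (-1.84 to -1.13). Relative to endothelial markers both passed, with 4 member probes (Klf9 at 0.54 and Klf13 ILMN_2464474 at 0.42 among them) and 13542 probes in all. That scaling moves the difference of every probe upward alike, so the negative differences of Klf2 and Klf4 shrank. Their unadjusted p in limma rose, from 2.12e-05 to 0.00163 and from 5.98e-05 to 0.000131. The adjusted p of both fell because the adjustment depends on the p of all probes, of which so many were small. The same scaling reversed the averaged Klf6 ILMN_1232041 (0.17), Klf7 ILMN_1241890 (0.0801) and Klf13 ILMN_1218206 (0.12), Klf4 ILMN_1241903 in KO (0.17) and Klf4 ILMN_2999439 between genotypes in LCA (0.0459). Array weights reversed Klf10 ILMN_2648189 (-0.0815), Klf4 ILMN_1241903 in KO (0.0793) and Klf4 ILMN_2999439 between genotypes in LCA (0.14), where the cause was not tested.

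Leaving out 1 array at a time gave averaged differences of -0.93 to -0.75 for Klf2 and -1.54 to -1.30 for Klf4 ILMN_2999439, with 0 to 1 member probes past the adjusted threshold. Ranges that crossed 0 were -0.0188 to 0.78 for Klf7 ILMN_2433213, -0.11 to 0.34 for Klf10 ILMN_2648189, -0.71 to 0.31 for Klf4 ILMN_1241903 in KO, -0.0623 to 0.0914 for Klf3 in KO, -0.10 to 0.27 for Klf2 between genotypes in RCA, -0.18 to 0.12 for Klf4 ILMN_2999439 between genotypes in LCA and -0.12 to 0.25 for the Klf2 interaction.

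The deviations of arrays of equal replicate number correlated weakly, at -0.02 to 0.08 for the 6 pairs. The own number was highest in 4 of 6, among them every WT pair. Whether arteries of equal number came from the same mouse is not stated. The main fit and the permutation test treated the arteries as unpaired. With the replicate block, the averaged differences kept their size, with adjusted p = 0.48 for Klf2 (0.229 as a random block) and 0.518 for Klf4 ILMN_2999439 (0.229), and 0 member probes passed in limma. The count of all probes past the threshold between genotypes in LCA, 11, ranged from 0 to 42 over the alternatives. Of 1014 alternative values, 752 were differences, and the others included counts of probes. Among the 1014, 941 were labelled unchanged. For a difference this meant the same direction and side of the threshold. For a count it allowed small shifts, such as 13 or 14 in place of these 11. Of the 752 differences, 20 reversed. Low signal over background limits the folds of Klf2 in LCA, the dim Klf4 probes and Klf6 ILMN_1232041.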

Other observations

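Among the Krüppel-like and Sp factors that were not members, single arrays also stood out in several probes of a gene at once; these genes were chosen after their values were seen. For Klf12, 3 of its probes read 198, 184 and 172 on KO RCA replicate 2, while they lay between 83.4 and 119.6 on the other arrays. The other 2 of the 5 Klf12 probes did not follow, at 103 and 91.0 on that array, and 1 of them, ILMN_2485526, was highest on WT LCA replicate 1, at 229. Both Klf16 probes were highest on KO LCA replicate 1, at 342 and 179, and lay between 90.5 and 148 elsewhere. For Klf4, the dim probe ILMN_1241903 was highest on WT RCA replicate 1 (436) and KO LCA replicate 3 (354), and on both of these arrays the other dim probe, ILMN_1221264, was also the highest of its group, at 247 and 149. The brightest Klf4 probe was the lowest of its group on the first of these arrays, at 345, and the highest of its group on the second, at 189.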
